A study of Homo sapiens with 12 samples.

Results

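The 10 genes described here belong to the BCL2 family, which controls the mitochondrial route of apoptosis. They were chosen by symbol as BCL2, BCL2L1, MCL1, BCL2L11, BBC3, PMAIP1, BMF, BID, BAX and BAK1, and each symbol matched 1 Ensembl identifier among the 58051 genes counted. The measurements come from poly(A) RNA of 12 libraries of 2 human head and neck squamous carcinoma lines, FaDu from the hypopharynx and Cal27 from the tongue, with 2 libraries in each of 6 groups. FaDu parental and Cal27 parental cells had not been selected with drug, AfaR cells had been selected in rising doses of afatinib, an irreversible ERBB family inhibitor, and ErlR cells in rising doses of erlotinib, a reversible EGFR inhibitor. The study kept resistant stocks in drug and withdrew it a day before experiments, without saying so for the RNA samples in particular. Recent drug exposure and its withdrawal therefore cannot be told apart from selection. Each of the 4 resistant models is 1 selected population, so a difference from parental cells describes that population and the drug class cannot be told apart from it. The study calls the libraries biological replicates, and p-values measure the spread between these libraries.

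BCL2 (the protein BCL2), BCL2L1 (BCL-XL) and MCL1 hold apoptosis in check by binding their pro-apoptotic relatives at the mitochondrial outer membrane. The BH3-only proteins made from BCL2L11 (BIM), BBC3 (PUMA), PMAIP1 (NOXA), BMF and BID carry death signals: they occupy the groove of the protective members or activate BAX and BAK1, the effectors that form pores and release cytochrome c. In epithelial cancers that depend on EGFR, loss of the signal through ERK is known to raise BIM and BMF, and BIM is widely studied as a mediator of death under EGFR inhibitors. The data hold message levels only, and much of the control of BIM, NOXA and MCL1 acts on the protein.

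RefSeq promoter windows, from 250 bases before to 50 bases after a transcription start on GRCh38.p14, were found for 9 of the 10 members, all but MCL1. The windows at the first listed start of the 4 BH3-only genes with a called change over 1 in log2 size against parental cells are printed 5′ to 3′ in the direction of transcription, so that the motifs of the genes the results turn on can be read side by side. Capitals mark matches on either strand to GTAAACA (FOXO), TGANTCA (AP-1), TGACGTCA (cAMP response element), CACGTG (E-box), CCAAT (NF-Y box) and GGGCGG (GC box). No 2 matches overlap in these 4 windows.
BCL2L11, chr2:111120664-111120963, plus strand: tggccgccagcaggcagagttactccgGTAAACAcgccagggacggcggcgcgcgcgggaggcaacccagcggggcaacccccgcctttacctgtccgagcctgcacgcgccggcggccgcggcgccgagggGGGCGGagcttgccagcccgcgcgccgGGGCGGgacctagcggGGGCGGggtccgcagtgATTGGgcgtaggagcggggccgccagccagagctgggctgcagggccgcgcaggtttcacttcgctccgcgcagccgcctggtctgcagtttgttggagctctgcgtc
BMF, chr15:40108830-40109129, minus strand: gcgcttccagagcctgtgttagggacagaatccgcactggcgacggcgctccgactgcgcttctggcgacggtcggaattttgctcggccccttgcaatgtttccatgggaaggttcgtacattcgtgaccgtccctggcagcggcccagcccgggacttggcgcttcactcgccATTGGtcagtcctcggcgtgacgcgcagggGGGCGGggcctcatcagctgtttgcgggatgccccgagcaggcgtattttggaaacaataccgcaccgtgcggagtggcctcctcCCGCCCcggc
BBC3, chr19:47232618-47232917, minus strand: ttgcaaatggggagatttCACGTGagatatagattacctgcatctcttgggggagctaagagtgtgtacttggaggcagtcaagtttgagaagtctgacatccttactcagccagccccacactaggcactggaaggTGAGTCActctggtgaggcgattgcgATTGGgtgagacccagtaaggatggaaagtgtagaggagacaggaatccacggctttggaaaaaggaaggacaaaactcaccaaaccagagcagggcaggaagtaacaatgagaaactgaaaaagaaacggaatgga
PMAIP1, chr18:59899746-59900045, plus strand: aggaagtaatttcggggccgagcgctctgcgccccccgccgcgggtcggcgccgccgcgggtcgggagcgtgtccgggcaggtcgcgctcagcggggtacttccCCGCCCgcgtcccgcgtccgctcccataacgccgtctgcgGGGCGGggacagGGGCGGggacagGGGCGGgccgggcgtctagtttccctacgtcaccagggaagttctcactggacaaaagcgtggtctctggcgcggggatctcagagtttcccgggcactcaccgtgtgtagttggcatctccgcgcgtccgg
The BCL2L11 window holds a FOXO match 223 bases before the start, a motif present in 3.42% of the 35116 RefSeq promoter windows of this length. The BBC3 window has an E-box match, found in 7.26% of all windows, and an AP-1 match, found in 7.71%. The BMF and PMAIP1 windows printed hold matches to the GC box, which 45.0% of windows have, and BMF also to the NF-Y box, which 34.6% have. BMF has a further RefSeq start, and its window (chr15:40106917-40107216), not printed, holds no match to these motifs. The BAX window, not printed, carries 4 E-box matches within 138 bases of its start. The cAMP response element, present in 1.85% of all windows, was matched in none of the members' windows. These matches describe letters and not bound sites.

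Libraries held from 16334937 to 23399259 gene counts, with 3.86% to 5.82% of all counts on ERCC spike-ins. Of 9 squamous epithelial markers, 8 were above 1 CPM (normalised read count per 1e+06, scaled by TMM) in every library. Their summed level was from 5150 to 13700 CPM in 10 libraries but 1700 and 1600 CPM in the 2 Cal27 AfaR libraries, where the sum of 6 fibroblast markers was 279 and 288 CPM against 29.8 and 41.4 CPM in Cal27 parental cells. Nearly all of that sum was COL1A1 (262 and 272 CPM in Cal27 AfaR). PDGFRB was also higher there, at 12.6 and 11.8 against 1.82 and 1.47 CPM in Cal27 parental cells, and COL1A2 was at 4.1 and 4.04 against 1.58 and 2.82 CPM. COL3A1 was at 0.692 and 0.923 against 0.645 and 1.18 CPM. DCN had at most 2 counts and PDGFRA at most 1 in a Cal27 AfaR library. Immune markers summed to 10.3 to 18.5 CPM and endothelial markers to 2.59 to 36.9 CPM. All 10 members passed the filter on low counts in every fit. A difference was called at a Benjamini-Hochberg adjusted p under 0.05 by edgeR's quasi-likelihood test over all genes tested, and every log2 fold change below comes from that test with its standard error (SE).

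The family was far from evenly expressed. On a scale per gene length (TPM, length-corrected CPM), MCL1 had the highest level of the 10 members in every library, from 214 to 390 TPM, and made up from 64.4% to 82.7% of the summed message of the 3 anti-apoptotic members. BCL2L1 lay between 51.6 and 145 TPM. BCL2, the founding member of the family, stayed between 0.374 and 2.09 TPM, under 0.6% of the anti-apoptotic sum in each library. The effectors lay between these, BAX at 81.4 to 132 TPM and BAK1 at 62.3 to 122 TPM. Among the BH3-only genes, BID and PMAIP1 gave most of the message, with BID at 26.9 to 98.2 TPM and PMAIP1 at 17.7 to 66.9 TPM. BMF ranged most widely, from 0.204 TPM in a FaDu parental library to 34.5 TPM in a Cal27 AfaR library.

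**Figure D1:**
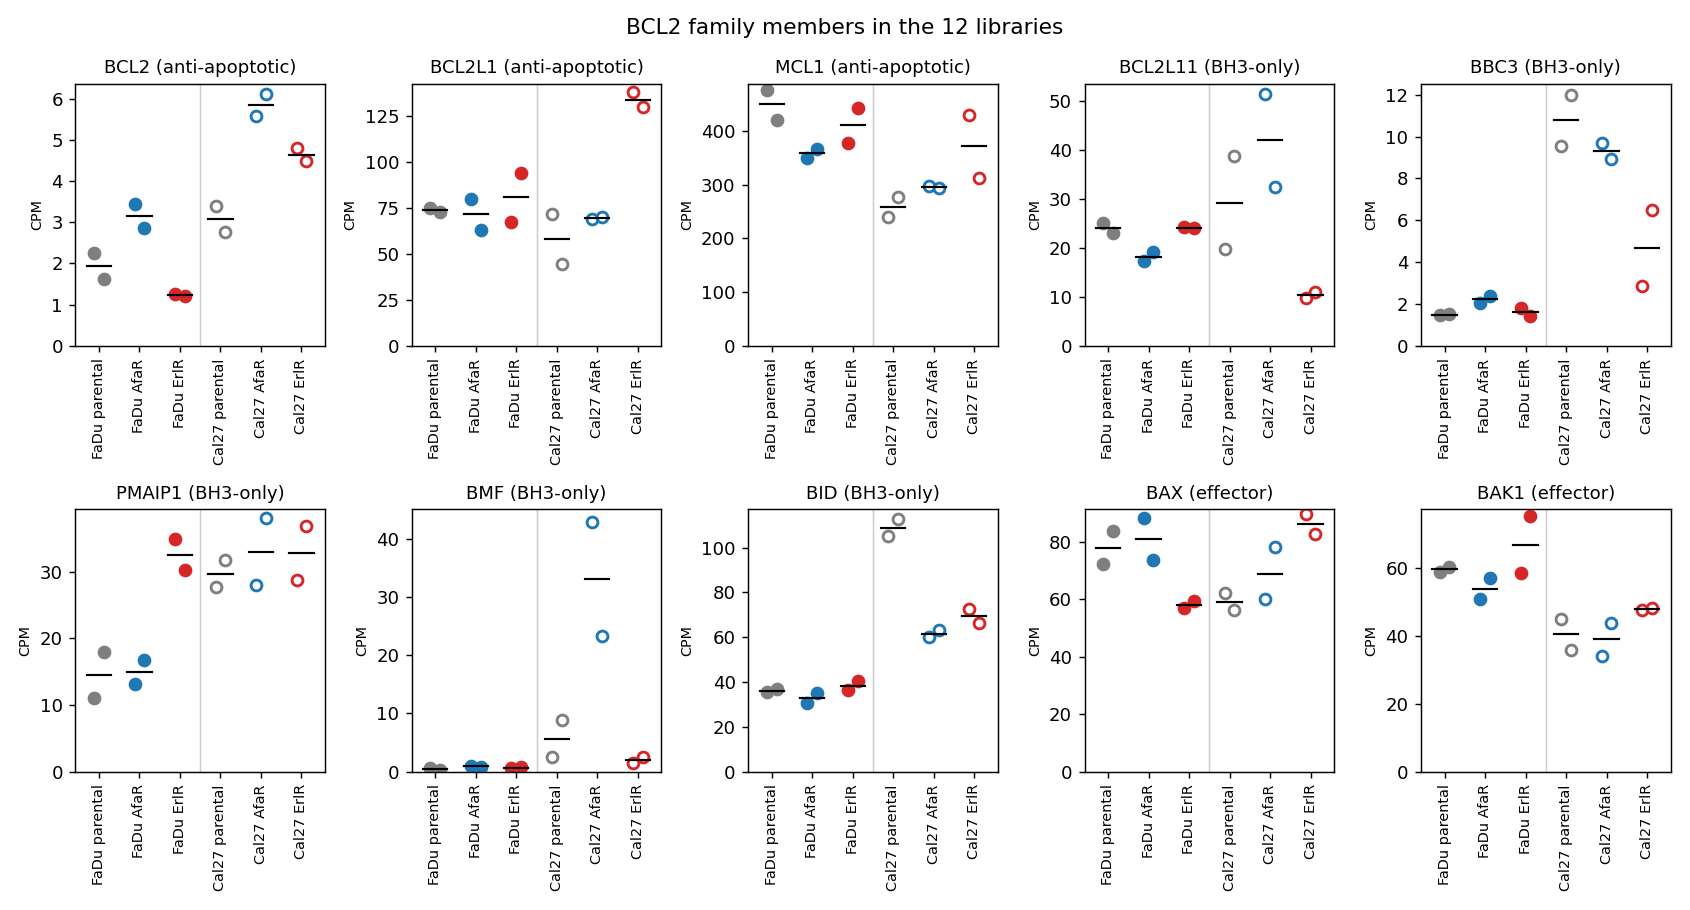
Level of each member (y axis, CPM, from 0, with its own range per gene) in the 6 groups (x axis); each circle is 1 library, filled for FaDu and open for Cal27, and the line is the mean of 2. BCL2L1 stands highest in the 2 Cal27 ErlR libraries (138 and 130 CPM), BMF in the 2 Cal27 AfaR libraries (42.9 and 23.2 CPM), and PMAIP1 is lower in FaDu parental and FaDu AfaR than in the other 4 groups.

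The lines differed before any selection. The study grew them in different culture media, FaDu in EMEM and Cal27 in DMEM with GlutaMAX, so line and medium cannot be told apart. Against FaDu parental cells, Cal27 parental cells had higher levels of 4 of the 5 BH3-only members (BBC3, PMAIP1, BMF and BID), where 28.7% of all 16240 genes tested were higher, and lower levels of MCL1, BAX and BAK1, where 26.8% of all genes were lower. BID, the BH3-only protein that links death receptors to mitochondria once a caspase has cut it, was at 35.4 and 36.9 CPM in FaDu parental and at 105 and 113 CPM in Cal27 parental libraries, a log2 fold change of 1.59 (SE 0.119, adjusted p = 4.38e-07). BBC3, whose product binds all protective members, was at 1.46 and 1.51 against 9.56 and 12 CPM (2.85, SE 0.363, adjusted p = 3.07e-05). In both genes every Cal27 parental library stood well above every FaDu parental library, where 79.5% of all genes tested had no overlap. BMF was barely detected in FaDu parental cells, at 0.635 and 0.313 CPM from 13 and 6 counts, and was at 2.46 and 8.87 CPM in Cal27 parental cells (3.55, SE 0.623, adjusted p = 0.000382), or 2.35 without Cal27 parental replicate 2. PMAIP1 was higher by 1.04 (SE 0.234, adjusted p = 0.00233), at 27.7 and 31.7 against 11.1 and 17.9 CPM. MCL1 was lower, at 240 and 276 CPM against 476 and 421 CPM (log2 fold change -0.80, SE 0.147, adjusted p = 0.000521). BAX was lower by -0.40 (adjusted p = 0.0321) and BAK1 by -0.56 (adjusted p = 0.0106). Scaled to the ERCC spike-ins, which moves the median of all genes in this comparison from 0.04 to 0.62, BAX stood at 0.18 and BAK1 at 0.02 and neither was called, nor was MCL1 at -0.22, while the 4 BH3-only genes kept their calls. BAX also lost its call when FaDu parental replicate 2 or either Cal27 parental library was left out (adjusted p up to 0.196), and BAK1 without Cal27 parental replicate 2 (adjusted p = 0.111). BCL2 (0.67), BCL2L1 (-0.35) and BCL2L11 (0.28) did not pass the test.

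FaDu AfaR cells gave no called member, where 10.4% of all 15092 genes tested were higher and 7.49% lower. With edgeR, 2 of the 10 members had an unadjusted p under 0.05, MCL1 at 349 and 367 against 476 and 421 CPM (log2 fold change -0.34, 95% CI -0.61 to -0.08, adjusted p = 0.0723) and BCL2L11 at 17.3 and 19.2 against 25 and 23.1 CPM (-0.41, -0.72 to -0.11, adjusted p = 0.0648). The resistant libraries were below both parental libraries in both genes, but 65% of all genes tested had no overlap between these groups. DESeq2 on the 6 FaDu libraries called 0 members. On the 4 libraries compared it called MCL1 (adjusted p = 0.0365), as did edgeR without the filter on low counts (adjusted p = 0.0362). The interval of BAX was -0.26 to 0.34, that of BID -0.44 to 0.15 and that of BCL2L1 -0.45 to 0.33, so that changes of 1 or more on the log2 scale lay outside them. For BMF, with from 6 to 21 counts per library, the interval of -0.29 to 2.07 was too wide to say as much. The same held for BCL2 (0.68, 95% CI -0.06 to 1.43) and BBC3 (0.56, -0.21 to 1.33). PMAIP1 gave 0.03 (-0.49 to 0.54) and BAK1 -0.16 (-0.48 to 0.16).

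In FaDu ErlR cells 1 member passed the test, PMAIP1, where 2.58% of all genes tested were higher and 1.6% lower. NOXA, its product, binds MCL1 selectively. PMAIP1 was at 11.1 and 17.9 CPM in FaDu parental cells and at 34.9 and 30.2 CPM in FaDu ErlR cells, a log2 fold change of 1.19 (SE 0.227, adjusted p = 0.0271). Both resistant libraries lay above both parental ones, where 54.4% of all genes tested had no overlap between these groups. The PMAIP1 level reached that of the 3 Cal27 groups, whose libraries ran from 27.7 to 38 CPM. FaDu ErlR libraries held 16408108 and 16383694 gene counts, with 3.95% and 4.6% of counts on spike-ins. FaDu parental libraries held 21867912 and 20441530, with 5.79% and 5.82%. FaDu AfaR libraries had 5.74% and 5.64% on spike-ins, and Cal27 libraries from 3.86% to 4.54%. This difference in depth and spike-in share runs with the groups, and its part in the PMAIP1 result was not tested. The call was lost without FaDu parental replicate 1 (0.88, adjusted p = 0.156), FaDu ErlR replicate 1 (1.09, adjusted p = 0.07) or FaDu ErlR replicate 2 (1.28, adjusted p = 0.0839). FaDu AfaR cells, at 13.1 and 16.7 CPM, were below FaDu ErlR cells in the direct test (-1.16, SE 0.226, adjusted p = 0.0118). PMAIP1 took 55.5% and 50.5% of the BH3-only TPM in FaDu ErlR libraries against 28.8% and 39.4% in FaDu parental ones. BAX, at 57.1 and 59.3 against 72.2 and 83.8 CPM, gave -0.41 with an adjusted p of 0.121. Under ERCC scaling, which moves the median of all genes in this comparison from 0 to 0.49, BCL2L1 (0.62), BCL2L11 (0.51), BID (0.59) and BAK1 (0.66) were called as well, all close to that shift.

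**Figure D2:**
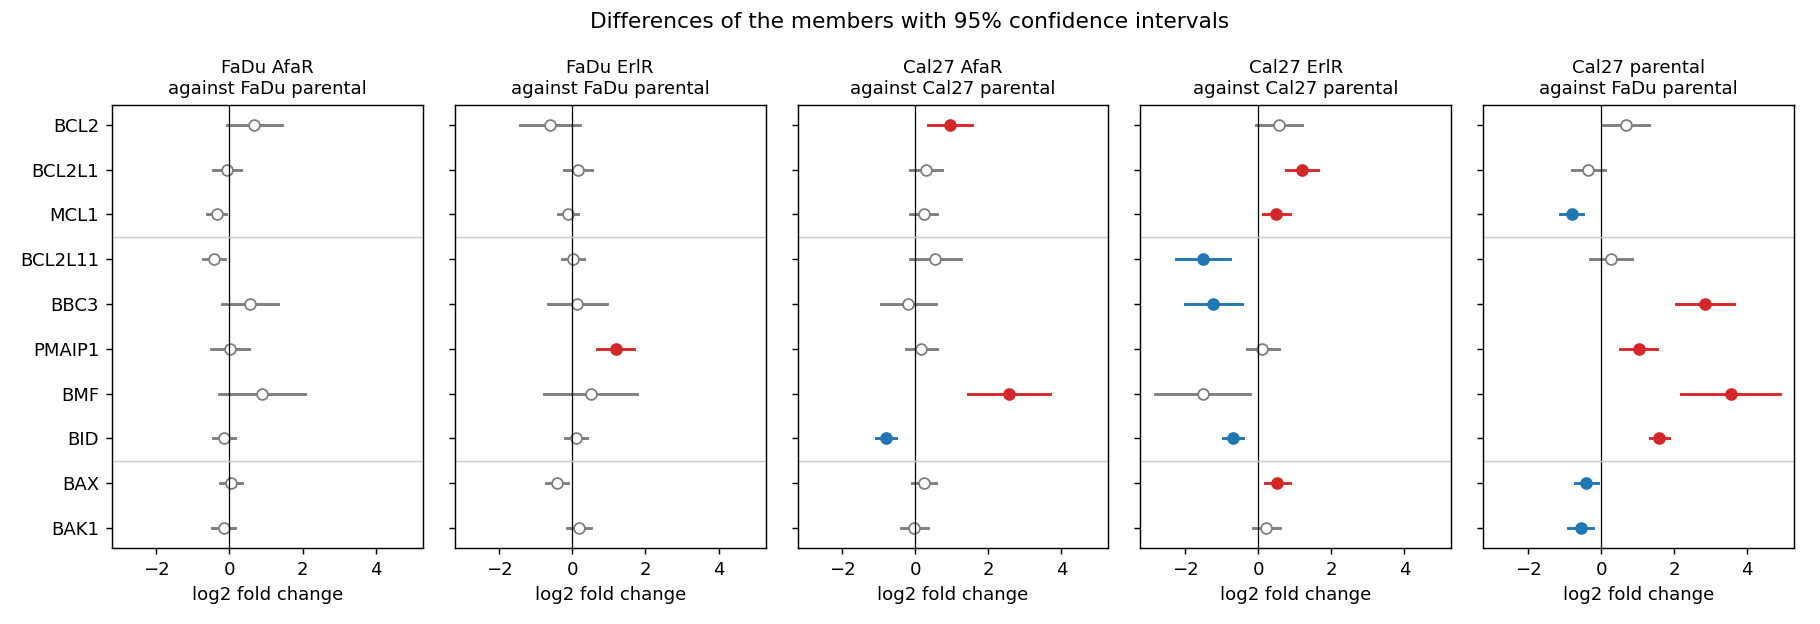
Log2 fold change of each member (x axis) with its 95% confidence interval from edgeR in the 4 comparisons with parental cells and between the parental lines; filled points were called (red higher, blue lower) and open grey points were not. FaDu AfaR has 0 called members, FaDu ErlR 1, Cal27 AfaR 3, Cal27 ErlR 6, and the parental lines differ in 7.

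In Cal27 AfaR cells the pro-apoptotic BMF was higher and BID lower. BMF was at 2.46 and 8.87 CPM in Cal27 parental libraries and at 42.9 and 23.2 CPM in Cal27 AfaR libraries, a log2 fold change of 2.57 (95% CI 1.44 to 3.70, SE 0.501, adjusted p = 0.00358). BMF, which is tethered to the cytoskeleton in attached cells, thereby rose from 1.06% and 3.2% of the BH3-only TPM to 17.6% and 9.87%. The size of the change moved with the library left out, from 1.93 without Cal27 parental replicate 1 to 3.77 without Cal27 parental replicate 2, and the call held in all 4 cases (adjusted p at most 0.0498). BID fell from 105 and 113 to 59.9 and 63.2 CPM (-0.80, SE 0.123, adjusted p = 0.00102). Its groups did not overlap, nor did those of 72.2% of all genes tested. BCL2 was at 3.4 and 2.76 against 5.59 and 6.12 CPM (0.95, SE 0.272, adjusted p = 0.0216), and its call was lost without Cal27 parental replicate 2 or either Cal27 AfaR library (adjusted p up to 0.111) and with DESeq2 on the 4 libraries (adjusted p = 0.073). The 2 called rises and 1 called fall among 10 members stand beside 19.5% of all 15269 genes tested higher and 18.2% lower. BCL2L11, at 19.7 and 38.7 CPM in parental and 51.4 and 32.3 CPM in Cal27 AfaR libraries, overlapped between the groups (0.55, adjusted p = 0.19). The other 6 members lay between -0.19 and 0.29. These are also the libraries with the low squamous and high COL1A1 and PDGFRB levels given above, whose part in the result was not tested.

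Cal27 ErlR cells had the most called members of the 4 models by count. Of the protective members BCL2L1 and MCL1 were higher, of the BH3-only members BCL2L11, BBC3 and BID were lower, and of the effectors BAX was higher. The 3 higher and 3 lower members stand beside 12.3% of all genes tested higher and 15.3% lower. The median log2 fold change was 0.57 over the 3 anti-apoptotic members, -1.22 over the 5 BH3-only members and 0.37 over the 2 effectors, and -0.03 over all genes tested.

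BCL2L1 was at 71.6 and 44.3 CPM in Cal27 parental cells and reached 138 and 130 CPM in Cal27 ErlR cells (1.19, 95% CI 0.75 to 1.63, SE 0.198, adjusted p = 0.00266). No other library of the 12 exceeded 94 CPM, and the call held with each library left out, at 0.90 to 1.59. On the reference annotation BCL2L1 (chr20:31664452-31723989, minus strand) shares 1735 exonic bases with ABALON, a long noncoding gene on the opposite strand. ABALON was at 1.94 and 1.23 CPM in Cal27 parental and 4.08 and 5.59 CPM in Cal27 ErlR libraries (1.59, SE 0.376, adjusted p = 0.0134), a call lost without Cal27 parental replicate 2 or Cal27 ErlR replicate 2 (adjusted p up to 0.0807). Whether counting used strand is not given in the sources used here, so reads of the pair cannot be told apart. MCL1 was at 240 and 276 against 429 and 313 CPM (0.50, SE 0.162, adjusted p = 0.0453), a call near the threshold that was lost without either Cal27 parental library or without Cal27 ErlR replicate 1 (0.28, adjusted p = 0.309), and under 5 of 11 other settings. BCL2, at 3.4 and 2.76 against 4.8 and 4.49 CPM, did not pass the test (0.57, adjusted p = 0.153).

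BCL2L11 was at 19.7 and 38.7 CPM in Cal27 parental cells against 9.85 and 11 CPM in Cal27 ErlR cells, the lowest levels of this gene in the 12 libraries (-1.51, 95% CI -2.24 to -0.77, SE 0.329, adjusted p = 0.00935). Its Cal27 parental libraries lay far apart, and without Cal27 parental replicate 2 the change was -0.92 (adjusted p = 0.0404). BCL2L11 (chr2:111119378-111168447, plus strand), whose promoter window with the FOXO match is printed above, shares 727 exonic bases with MIR4435-2HG on the opposite strand. That noncoding gene was at 58.7 and 47.8 CPM in Cal27 parental and 43.1 and 51.9 CPM in Cal27 ErlR libraries (-0.18, adjusted p = 0.405). MIR4435-2HG was called higher in Cal27 AfaR, at 72 and 76.8 CPM (0.51, adjusted p = 0.0272). Against FaDu parental cells, at 22 and 23.8 CPM, it was also higher in Cal27 parental cells (1.21, adjusted p = 2.3e-05). With the use of strand unknown, reads of this pair cannot be told apart either. BBC3 was at 9.56 and 12 against 2.85 and 6.5 CPM (-1.22, SE 0.351, adjusted p = 0.0298), with the call lost without Cal27 parental replicate 2 or Cal27 ErlR replicate 1 (-0.73, adjusted p = 0.114) and in the fit of 4 libraries (adjusted p = 0.0515), and at -1.92 without Cal27 ErlR replicate 2. BID was at 105 and 113 against 72.4 and 66.4 CPM (-0.68, SE 0.123, adjusted p = 0.00413), and its call held with every library left out. BMF was at 2.46 and 8.87 against 1.56 and 2.43 CPM, with a log2 fold change of -1.52 that missed the threshold (95% CI -2.83 to -0.21, adjusted p = 0.0812). It was called without Cal27 parental replicate 1 (-2.15, adjusted p = 0.00172) and stood at -0.30 without Cal27 parental replicate 2 (adjusted p = 0.721). It was also called without the filter on low counts and in the fit of all 12 libraries (adjusted p = 0.0487). PMAIP1 gave 0.12, with an interval of -0.31 to 0.56. BAX was at 62.1 and 56.2 against 89.7 and 82.9 CPM (0.52, SE 0.149, adjusted p = 0.0287), lost without Cal27 parental replicate 2 or Cal27 ErlR replicate 1 (adjusted p up to 0.152), and BAK1 gave 0.22 (adjusted p = 0.345).

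**Figure D3:**
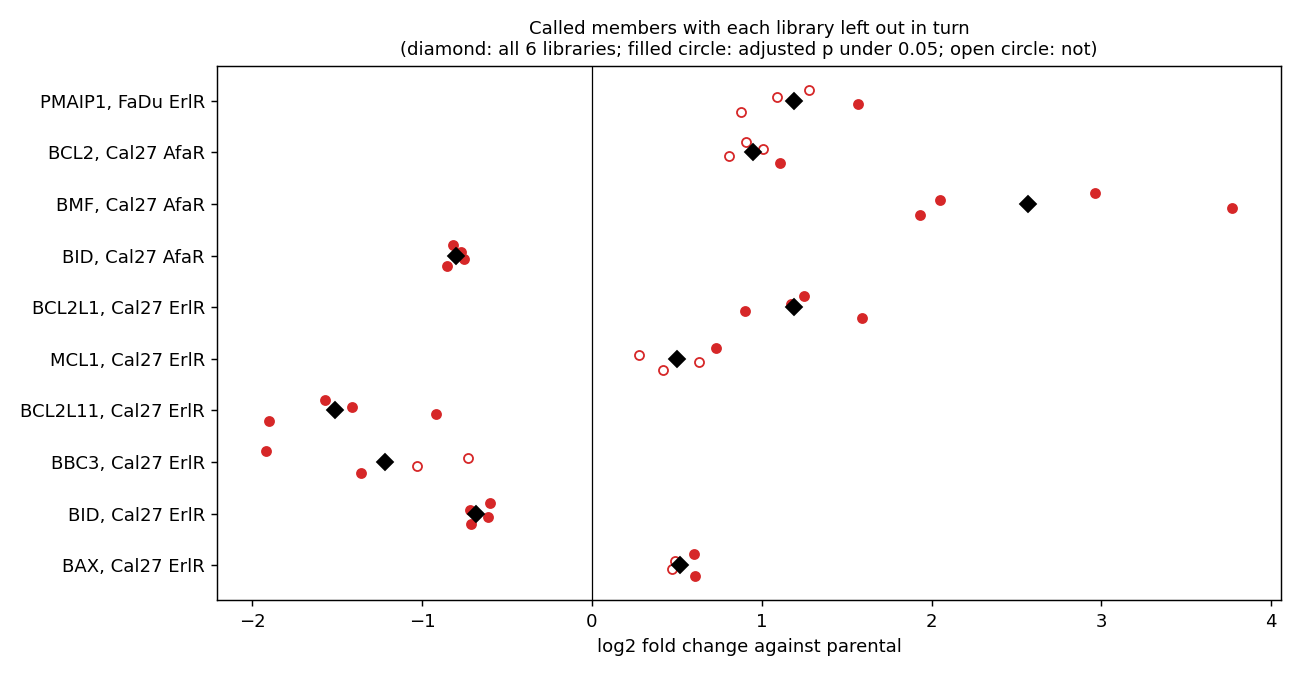
Log2 fold change of each called member against parental cells (x axis) with all 6 libraries of the line (diamond) and with each of the 4 libraries of the comparison left out in turn (circles, filled where the adjusted p stayed under 0.05). BID in both Cal27 models, BMF in Cal27 AfaR, and BCL2L1 and BCL2L11 in Cal27 ErlR have 4 filled circles each.

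Summed by role on the TPM scale, the 5 BH3-only members came to 13.1% and 17.1% of the 3 anti-apoptotic members in FaDu parental libraries and to 55.5% and 66.3% in Cal27 parental libraries. The FaDu AfaR libraries were at 15.6% and 18.5% and the FaDu ErlR libraries at 26.3% and 20.7%. The Cal27 AfaR libraries were at 49.8% and 48.5% and the Cal27 ErlR libraries at 22.7% and 32%. The Cal27 ErlR libraries thus lay below the 4 other Cal27 libraries, and the FaDu ErlR libraries above the 4 other FaDu libraries. These sums are of message, are led by BID, PMAIP1 and MCL1, and were given no test.

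**Figure D4:**
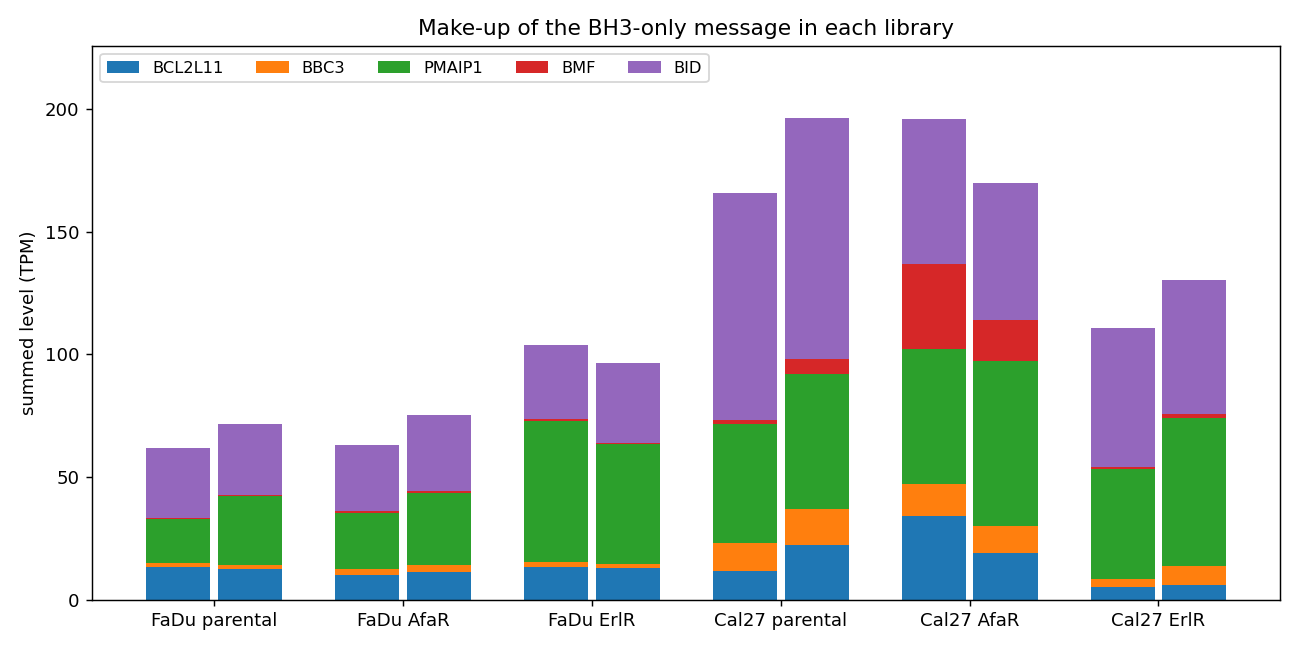
Level of each BH3-only member (stacked bars, TPM, from 0) in the 12 libraries, 2 bars per group. The sum was 61.7 and 71.8 TPM in FaDu parental and 166 and 196 TPM in Cal27 parental libraries, BMF shows as a visible band mainly in Cal27 AfaR, and the Cal27 ErlR bars reach 111 and 130 TPM.

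The 2 resistant models of a line were also compared with each other. In Cal27, AfaR cells were above ErlR cells in BMF (4.09, SE 0.565, adjusted p = 0.000374), BCL2L11 (2.05, SE 0.33, adjusted p = 0.000853) and BBC3 (1.03, SE 0.351, adjusted p = 0.0343) and below them in BCL2L1 (-0.90, SE 0.196, adjusted p = 0.00429), 4 of 10 members where 49.6% of all genes tested differed. The BBC3 call was lost when either Cal27 AfaR library or Cal27 ErlR replicate 1 was left out (adjusted p up to 0.155), with 0.55 in the last case and 1.74 without Cal27 ErlR replicate 2. BID, lower than parental in both, did not differ between them beyond its error, with a 95% CI of -0.40 to 0.15. In FaDu, 2 of 10 members differed where 15.7% of all genes did, PMAIP1 as given above and BCL2. BCL2 was at 3.45 and 2.85 CPM in FaDu AfaR and at 1.27 and 1.22 CPM in FaDu ErlR libraries (1.30, SE 0.354, adjusted p = 0.037), from 71, 69, 20 and 19 counts, and this call was lost with each of the 4 libraries left out (adjusted p from 0.0925 to 0.143), with DESeq2 (adjusted p = 0.0759), under ERCC scaling (1.00, adjusted p = 0.0758) and in the fit of 4 libraries.

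Whether resistance went with different changes in the 2 lines was tested as an interaction in 1 fit of 12 libraries. For erlotinib resistance 5 of 10 members differed between the lines, where 18.6% of all 16240 genes did. BCL2L11 (1.51, SE 0.393, adjusted p = 0.0192), PMAIP1 (1.05, SE 0.326, adjusted p = 0.0413) and BID (0.77, SE 0.167, adjusted p = 0.00797) had a higher log2 fold change against parental cells in FaDu than in Cal27. BCL2L1 (-1.05, SE 0.292, adjusted p = 0.0256) and BAX (-0.94, SE 0.206, adjusted p = 0.00837) differed the other way. For afatinib resistance 1 member differed, BID (0.68, SE 0.166, adjusted p = 0.0136), again with 18.6% of all genes called. BMF, with 2.57 in Cal27 AfaR and 0.89 in FaDu AfaR, gave a difference of -1.67 that did not pass (95% CI -3.59 to 0.26, adjusted p = 0.223).

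The median change of neighbouring genes was smaller than that of each called member or opposite to it. Called members were picked by their own change, so this was likely beforehand and is description only. Medians were taken over the 10 tested genes on either side. Beside BMF (chr15:40087890-40108892) in Cal27 AfaR the median log2 fold change was -0.47, with 0 of 20 called higher against 19.5% of all genes. Beside BID (chr22:17734138-17774770), where 18 neighbours were tested, it was 0.29 in Cal27 AfaR and 0.32 in Cal27 ErlR. None was called lower in either model, against 18.2% and 15.3% of all genes. The median was 0.20 beside BCL2L11, 0.09 beside BBC3 (chr19:47220822-47232766) and -0.27 beside BAX in Cal27 ErlR. It was -0.35 beside BCL2 (chr18:63123346-63320128) in Cal27 AfaR, and -0.08 beside PMAIP1 (chr18:59899948-59904306) in FaDu ErlR. Beside BCL2L1 in Cal27 ErlR it was 0.19, with 6 of 20 neighbours called higher against 12.3% of all genes. With 5 genes on either side it was 0.39 with 3 of 10 higher, and with 20 it was -0.06 with 9 of 40 higher. Beside MCL1 (chr1:150574551-150579738), again over 10 genes on either side, it was -0.04 in Cal27 ErlR. In FaDu ErlR, where MCL1 itself gave -0.11 and was not called, the median was -0.47. There 6 of 20 neighbours were called lower, against 1.6% of all genes. In FaDu AfaR, BCL2L11 gave -0.41 without a call, and the median beside it was -0.34. Of its 20 neighbours, 6 were called lower, against 7.49% of all genes. Beside MCL1 in FaDu AfaR, at -0.34 and not called, the median was 0.08 with 1 of 20 called lower.

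The genes whose log2(CPM + 1) followed a member most closely over the 12 libraries were BCAR3 (Pearson r = 0.968), HMGXB3 (0.94) and ABALON (0.931) for BCL2L1. They were USP48 (0.962), IFT140 (0.92) and AGPAT4 (0.92) for BCL2L11, and FBXO2 (0.984), GRAMD2A (0.983) and FAM114A1 (0.983) for BBC3. For BMF they were GXYLT2 (0.986), KLF9 (0.981) and CTSF (0.981), and for PMAIP1 ILK (0.924), HEBP1 (0.916) and SWI5 (0.901). The 12 points fall into 2 lines and 6 groups, so these values largely restate group levels and carry no p.

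Other family members were tested from a list. BIK, a further BH3-only gene, fell from 11.3 and 12.4 CPM in Cal27 parental to 3.57 and 4.21 CPM in Cal27 AfaR (-1.58, adjusted p = 0.00151) and to 3.05 and 2.13 CPM in Cal27 ErlR (-2.22, adjusted p = 0.000729). BAD, also BH3-only and more abundant, was called in neither Cal27 model. It was at 59.6 and 56.3 CPM in Cal27 parental, 41.3 and 49.9 CPM in Cal27 AfaR, and 70.7 and 77 CPM in Cal27 ErlR libraries. BCL2A1, a protective member induced by NF-κB, fell from 2.88 and 4.35 CPM to 0.266 and 0.231 CPM in Cal27 AfaR (from 5 and 4 counts, -3.79, adjusted p = 0.00262) and to 1.3 and 0.243 CPM in Cal27 ErlR (-2.26, adjusted p = 0.0226). BOK, an effector-like member, was higher in FaDu ErlR (25.6 and 28.5 against 42.8 and 52.1 CPM, 0.83, adjusted p = 0.0211) and lower in Cal27 ErlR (-0.61, adjusted p = 0.0141). Of the BH-domain and BNIP proteins, 1 of 8 tested was higher in FaDu AfaR (BNIP3L, a mitophagy receptor, 0.74) and 1 lower (BCL2L12, -0.59). In Cal27 AfaR 2 of 7 were lower (BCL2L12, -0.87; BNIP1, -0.69), and in Cal27 ErlR 1 was lower (BNIP3L, -1.22) and 1 higher (BCL2L13, 0.39). These counts stand beside 10.4% of all genes higher and 7.49% lower in FaDu AfaR and 18.2% lower in Cal27 AfaR. For Cal27 ErlR the shares were 12.3% higher and 15.3% lower. None of the 8 tested passed in FaDu ErlR by edgeR, where 2 had an unadjusted p under 0.05.

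Downstream of the pores, 4 of 10 genes of mitochondrial release and the apoptosome were lower in Cal27 AfaR, among them VDAC1 (-0.73), CYCS (-0.67), which encodes cytochrome c, and APAF1 (-0.63), the apoptosome scaffold, where 18.2% of all genes were lower. FaDu AfaR had 2 of 10 lower (CYCS, -0.52; VDAC1, -0.38), where 7.49% of all genes were, and Cal27 ErlR 1 of 10, where 15.3% were, the initiator caspase gene CASP9, from 12.4 to 4.9 CPM on average (-1.36, adjusted p = 0.00268). Of 5 other caspases, CASP10 (-1.44) was lower in Cal27 ErlR and none was called in the other 3 models by edgeR, where 0 had an unadjusted p under 0.05 in either AfaR model and 1 in FaDu ErlR. Among inhibitor of apoptosis genes, BIRC3 was lower in Cal27 AfaR (-1.04) and Cal27 ErlR (-1.84), while BIRC5 (0.94) and XIAP (0.52) were higher in Cal27 ErlR and BIRC2 (0.42) in Cal27 AfaR.

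In the death receptor pathway, TNFSF10, which encodes the ligand TRAIL, fell in Cal27 ErlR from 52.7 and 127 to 8.62 and 9.17 CPM (-3.35, adjusted p = 0.00239) and rose in FaDu AfaR from 7.18 and 7 to 13.5 and 46 CPM (2.05, adjusted p = 0.0215). CFLAR, which blocks caspase-8 activation, was lower in Cal27 ErlR (-1.09), as was the adaptor gene TRADD (-0.59). In Cal27 AfaR the TRAIL receptor gene TNFRSF10A was lower (-1.69), and TNFRSF1A (1.00) and RIPK1 (0.71) were higher. In the list drawn up for MCL1 or BIM protein turnover, USP9X (0.40) was higher and DESI1 (-0.95) lower in Cal27 AfaR. Of all genes there, 19.5% were higher and 18.2% lower. The data do not show whether DESI1 has a part in that turnover. None of the 8 or 7 tested was called by edgeR in the other models, with unadjusted p under 0.05 for 0 in FaDu AfaR, 4 in FaDu ErlR and 2 in Cal27 ErlR.

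Of 9 transcription factors known to act on BH3-only genes, 5 were called in Cal27 AfaR (1 higher, 4 lower), where 37.6% of all genes were, 5 in Cal27 ErlR (2 higher, 3 lower), where 27.6% were, and 1 in FaDu ErlR, where 4.18% were. By edgeR 0 were called in FaDu AfaR, where 1 had an unadjusted p under 0.05. TP63 fell in Cal27 AfaR from 233 and 225 to 25.9 and 16.3 CPM (-3.41, adjusted p = 7.71e-06) and was higher in Cal27 ErlR, at 373 and 405 CPM (0.75, adjusted p = 0.0194). E2F1 was higher in Cal27 AfaR (0.66, adjusted p = 0.00985) and in Cal27 ErlR (0.50, adjusted p = 0.0445). TP73 was lower in Cal27 AfaR (-1.66, adjusted p = 0.0315) and Cal27 ErlR (-3.40, adjusted p = 0.00316), and ATF4 in both (-1.07 and -1.42), with DDIT3 lower in Cal27 AfaR (-0.91, adjusted p = 0.0371) and Cal27 ErlR (-1.47). E2F1 in both models, TP63 in Cal27 ErlR and DDIT3 in Cal27 AfaR were named after their values were seen. FOXO3 was higher in FaDu ErlR, from 80.2 and 69.7 to 124 and 114 CPM (0.69, adjusted p = 0.0257). Of 10 ATF4 and DDIT3 stress genes, 5 were lower and 1 higher in Cal27 AfaR, led by DDIT4 (-2.37), TRIB3 (-1.79) and ASNS (-1.58), and 6 were lower and 1 higher in Cal27 ErlR, led by CHAC1 (-2.83), DDIT4 (-1.82) and ASNS (-1.74). Of all genes, 18.2% were lower and 19.5% higher in Cal27 AfaR, and 15.3% lower and 12.3% higher in Cal27 ErlR. The median of the stress gene list was -1.12 in Cal27 AfaR and -1.14 in Cal27 ErlR, against 0.00 and -0.03 over all genes tested. Both models were compared with the same 2 Cal27 parental libraries, so changes shared by them, BID among the members included, are not independent. Between the parental lines, 9 of the 10 stress genes were called higher in Cal27 than in FaDu, where 28.7% of all genes were (list median 1.37).

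Of the 51 calls named from these lists, ABALON included, 24 held with each library of the comparison left out in turn. None of the 7 in FaDu did. In FaDu AfaR, BNIP3L, BCL2L12, CYCS (-0.33 at the smallest), VDAC1 and TNFSF10 (0.91 without FaDu AfaR replicate 2) were lost without either parental library or without FaDu AfaR replicate 2. In FaDu ErlR, BOK was lost without either parental library or without FaDu ErlR replicate 2, and FOXO3 without any 1 of the 4. In Cal27 AfaR, BCL2L12 was lost without AfaR replicate 1, and CYCS without that library or parental replicate 1. E2F1 was lost there without AfaR replicate 2, and DDIT3 without parental replicate 1 (-0.47) or either AfaR library. APAF1, BIRC3 (-0.39 at the smallest) and TP73 were lost without parental replicate 2 or either AfaR library, BNIP1 without parental replicate 1 or either AfaR library, and BIRC2 and USP9X without any 1 of the 4. In Cal27 ErlR, BNIP3L (-0.67) was lost without parental replicate 2 and CASP10 without ErlR replicate 1. XIAP and TRADD were lost without either of these 2 libraries, BCL2A1, BOK and TP63 without parental replicate 2 or ErlR replicate 2, and BCL2L13 and E2F1 without any 1 of the 4. BCL2A1 there was -1.48 without ErlR replicate 2 and -3.85 without ErlR replicate 1. BIK in both Cal27 models, TNFSF10, CASP9, BIRC5 and CFLAR in Cal27 ErlR and TP63 in Cal27 AfaR were among the calls that held. BIRC3 (-1.17 at the smallest) and TP73 (-5.48 at the largest) in Cal27 ErlR held with a change in size of over 1.5 times. Under ERCC scaling, BCL2L12 (-0.42), CYCS (-0.34) and VDAC1 (-0.20) in FaDu AfaR, and USP9X (0.41) in Cal27 AfaR were no longer called. Of the 51 calls, 36 held under every setting other than a library left out. Beside those under ERCC scaling, in FaDu AfaR BNIP3L and BCL2L12 were lost in the fit of 12 libraries, VDAC1 in that of 4, BCL2L12 and VDAC1 under upper-quartile scaling, BCL2L12 with the replicate block and TNFSF10 with DESeq2 on 4 libraries. In Cal27 AfaR, TP73 was lost with DESeq2 (adjusted p = 0.236) and in the fit of 12 libraries, DDIT3 in that fit and with the crossed block, BIRC2 and USP9X with the replicate block, and BNIP1, BIRC2 and BIRC3 with DESeq2 on 4 libraries. In Cal27 ErlR, TRADD and DDIT4 were lost with DESeq2 on 4 libraries, BCL2L13 with the replicate block, either other filter or upper-quartile scaling, and E2F1 with a minimum of 10 counts in every library or upper-quartile scaling.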

How the data were processed

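The study sequenced poly(A) RNA from 6 groups, parental, AfaR and ErlR cells of FaDu and of Cal27, with 2 libraries each. The authors aligned reads to GRCh38 with STAR 2.5.2b and counted them per Ensembl gene with featureCounts (Subread 1.5.2). The deposited values are raw counts per gene and per ERCC spike-in. Spike-ins stayed out of library sizes. The 4 deposited tables of normalized counts and their comparisons were not used here. Groups came from the labels.

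The test was edgeR 4.0.16 run under R 4.3.3 (TMM, filterByExpr with a minimum count of 10, glmQLFit, glmQLFTest, Benjamini-Hochberg over all genes tested), fitted separately for each line on its 6 libraries, which leaves 3 residual degrees of freedom. For differences between lines all 12 libraries were fitted. The SE is the log2 fold change over the square root of F. TPM used merged exon length. The test was checked on simulated data. Coordinates are those of the count files on GRCh38. The 10 members and the other lists were chosen with earlier results of these data known. Named were all members in every comparison, of other lists at most 3 called genes per comparison with parental cells with the largest change, and the 3 genes closest in pattern to each member that was called with a log2 fold change over 1 in size. Alternatives were DESeq2 1.42.0 on the line's or on 4 libraries, fits of 4 or 12 libraries, other filters and scalings, a replicate block and leaving out each library. DESeq2 on 4 libraries and a block with crossed numbers were chosen after seeing the data. Some genes, a related list and 1 motif are not reported here.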

Additional observations from a re-analysis of the deposited data

Results flagged for a closer look

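For 6 member results, the test of the difference itself found that the change against parental cells was not the same in FaDu and Cal27. Values are the FaDu change minus the Cal27 change on the log2 scale. In afatinib resistance this was BID (0.68), with -0.14 in FaDu and -0.80 in Cal27. The call was lost without FaDu parental replicate 1, FaDu AfaR replicate 2 or Cal27 parental replicate 2 (adjusted p up to 0.0641).

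In erlotinib resistance BID gave 0.77 (0.11 in FaDu, -0.68 in Cal27) and BAX -0.94 (-0.41 and 0.52), both called with each of the 8 libraries left out. BCL2L11 gave 1.51 (0.02 and -1.51), BCL2L1 -1.05 (0.15 and 1.19) and PMAIP1 1.05 (1.19 and 0.12). BCL2L11 lost its call without either FaDu parental library, Cal27 parental replicate 2 (0.94) or Cal27 ErlR replicate 1 (adjusted p up to 0.0805), and BCL2L1 without any of these or FaDu ErlR replicate 1 (adjusted p up to 0.093). PMAIP1 kept its call only without FaDu parental replicate 2 or Cal27 ErlR replicate 2 (adjusted p up to 0.153 otherwise). Under ERCC scaling BAX (-0.47, adjusted p = 0.133) and BCL2L1 (-0.61, adjusted p = 0.0926) were no longer called. Groups of 2 libraries were too small for a search for single outlying libraries.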

How the results depend on the processing

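With 2 libraries per group and 3 residual degrees of freedom, several calls rest on single libraries. Of 1292 member values under alternatives, 1192 kept their direction and side of the threshold or were called in neither case, 55 lost a call, 43 gained one and 2 reversed, both under ERCC scaling between the parental lines, BAX (0.18) and BAK1 (0.02). In 42 values called under neither setting the sign changed, with a log2 fold change of at most 0.41 in size. The cause was not tested. Message and not protein was measured.

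In FaDu ErlR, all genes called were 631, against 997 with DESeq2, 1028 with DESeq2 on 4 libraries, 1728 without the filter and 5728 under ERCC scaling. Members called there were 2 without the filter and 5 under ERCC scaling. In FaDu AfaR against parental 1 member was called without the filter and 1 with DESeq2 on 4 libraries. Between FaDu AfaR and FaDu ErlR, 6 members and 4255 genes were called under ERCC scaling and 1 member in the fit of 4 libraries. In the AfaR difference between lines 3 members were called without the filter. ERCC scaling moved the median of all genes by 0.18 in FaDu AfaR and 0.49 in FaDu ErlR, and the Cal27 medians were 0.01 and 0.

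With 1 library left out, all genes called ranged from 278 to 2541 in FaDu AfaR, 68 to 518 in FaDu ErlR, 3350 to 4662 in Cal27 AfaR, 2256 to 3705 in Cal27 ErlR, 7152 to 7908 between parental lines, 710 to 2259 between the FaDu models, 5063 to 6756 between the Cal27 models, and 1891 to 2389 and 1653 to 2700 in the AfaR and ErlR differences between lines. The count of all genes moved by over 1.5 times in FaDu AfaR without parental replicate 1 (278) or 2 (837) or AfaR replicate 2 (804), in FaDu ErlR without parental replicate 1 (68) or 2 (72) or ErlR replicate 2 (83), in Cal27 AfaR without AfaR replicate 1, and in Cal27 ErlR without parental replicate 2 or ErlR replicate 1 (2322). It did so between the FaDu models without AfaR replicate 2 (786), ErlR replicate 1 (1516) or ErlR replicate 2, in the AfaR difference between lines without FaDu parental replicate 1 or 2 (1946), and in the ErlR difference without FaDu parental replicate 1 or 2 (1892), Cal27 parental replicate 2 (1734) or Cal27 ErlR replicate 1 (1832). Members called ranged, in that order, from 0 to 0, 0 to 1, 2 to 4, 3 to 6, 5 to 8, 1 to 1, 3 to 5, 0 to 2 and 2 to 7.

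The replicate numbers are labels only. Deviations of same-numbered libraries from their group means correlated at 0.16 and -0.11 between FaDu parental and its AfaR and ErlR groups and at -0.26 and 0.13 in Cal27. With a replicate block, 0, 1, 3 and 5 members and 2344, 438, 5238 and 3693 genes were called in FaDu AfaR, FaDu ErlR, Cal27 AfaR and Cal27 ErlR; MCL1 in Cal27 ErlR was the member that lost its call. With the numbers of FaDu ErlR and Cal27 AfaR crossed in the block, the counts were 0, 1, 4 and 7 members and 3208, 990, 6312 and 4760 genes.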
